A study of Mus musculus with 16 samples.

Results

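Prostaglandin synthesis and receptor genes were described in 4T1 and 67NR cells, mouse mammary carcinoma lines of BALB/c origin. 4T1 is the metastatic line and 67NR the non-metastatic one. Cells were incubated for 24 h with vehicle or with CIX, an inhibitor of the cytosolic phospholipase cPLA2α, at 15 µM. The 4 groups, vehicle treated 4T1, CIX treated 4T1, vehicle treated 67NR and CIX treated 67NR, held 4 samples each, all grown in medium with serum. Each group stands for 1 established line in culture, so no difference between the groups can be carried to metastatic cells in general. A list of 10 mouse symbols (Ptgs1, Ptgs2, Ptges, Ptges2, Ptges3, Ptger1, Ptger2, Ptger4, Hpgd and Ptgr1) chose the members, and each matched 1 gene of the 33072 in the count table. The symbols were listed for their place downstream of the drug target and not by a measured value.

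Prostaglandins are made from arachidonic acid, which cPLA2α (gene Pla2g4a) frees from membrane phospholipids. The cyclooxygenases COX-1 (Ptgs1) and COX-2 (Ptgs2) turn arachidonic acid into prostaglandin H2, and the E synthases (Ptges, Ptges2, Ptges3) turn prostaglandin H2 into prostaglandin E2. Prostaglandin E2 acts on the cell surface receptors EP1 (Ptger1), EP2 (Ptger2), EP3 (Ptger3) and EP4 (Ptger4). Uptake and oxidation by 15-hydroxyprostaglandin dehydrogenase (Hpgd) and reduction by prostaglandin reductases such as Ptgr1 end the signal. Ptgs1 is known as a steadily expressed gene and Ptgs2 as an inducible one, and the Ptgs2 product is a classical source of prostaglandin E2 in mammary tumors.

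On the GRCm38 assembly, Ptgs1 (ENSMUSG00000047250) lies on chromosome 2 at chr2:36230426-36252272 on the plus strand, and Ptgs2 (ENSMUSG00000032487) on chromosome 1 at chr1:150100031-150108227 on the plus strand. Ptges (ENSMUSG00000050737) lies at chr2:30889471-30929863 on the minus strand. Ptges2 (ENSMUSG00000026820) lies at chr2:32395896-32405772 and Ptges3 (ENSMUSG00000071072) at chr10:128058954-128077272, each on the plus strand. Ptger1 (ENSMUSG00000019464) is placed at chr8:83666678-83672753 and Ptger2 (ENSMUSG00000037759) at chr14:44988195-45003820, on the plus strand, and Ptger4 (ENSMUSG00000039942) at chr15:5206661-5244187, on the minus strand. Hpgd (ENSMUSG00000031613) is placed at chr8:56294585-56321043 on the plus strand and Ptgr1 (ENSMUSG00000028378) at chr4:58965439-58987119 on the minus strand. All 10 are annotated as protein coding.

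The promoters of Ptgs1, Ptgs2 and Ptges are shown because these 3 genes form the main route to prostaglandin E2 and their levels differed between the untreated lines in both directions. The sequences are from RefSeq (GRCm38.p6) and run from 250 bases before to 50 bases after the annotated start, 5′ to 3′ on the strand of the gene, at chr2:36230176-36230475, chr1:150099781-150100080 and chr2:30903248-30903547. The Ptges window lies inside the interval given above for the gene and not at its 5′ end. Other annotated starts of Ptges were not searched. Capitals mark matches to the motifs named after the sequences.
Ptgs1: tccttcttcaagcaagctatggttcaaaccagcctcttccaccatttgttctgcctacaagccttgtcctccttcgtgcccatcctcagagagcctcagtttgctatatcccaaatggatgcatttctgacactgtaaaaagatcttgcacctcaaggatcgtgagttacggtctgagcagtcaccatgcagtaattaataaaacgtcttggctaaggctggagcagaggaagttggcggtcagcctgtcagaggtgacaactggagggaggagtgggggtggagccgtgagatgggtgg
Ptgs2: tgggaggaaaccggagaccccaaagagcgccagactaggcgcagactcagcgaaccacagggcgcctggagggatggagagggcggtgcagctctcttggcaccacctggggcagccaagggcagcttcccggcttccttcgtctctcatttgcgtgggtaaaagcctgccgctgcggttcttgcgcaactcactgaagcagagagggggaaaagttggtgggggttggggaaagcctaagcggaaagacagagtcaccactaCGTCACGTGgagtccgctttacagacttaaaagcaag
Ptges: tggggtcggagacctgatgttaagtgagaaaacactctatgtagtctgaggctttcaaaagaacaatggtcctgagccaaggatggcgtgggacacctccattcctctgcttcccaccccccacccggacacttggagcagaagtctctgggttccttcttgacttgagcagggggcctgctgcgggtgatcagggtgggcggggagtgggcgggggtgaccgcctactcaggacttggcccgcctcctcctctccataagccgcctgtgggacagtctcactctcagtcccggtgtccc
The motifs searched on both strands were the TATA box as TATAA, the cAMP response element half-site as TGACG, the E-box as CACGTG, the core of the antioxidant response element as TGACNNNGC, and the NF-κB site by its usual consensus. In the Ptgs2 promoter the half-site, read on the minus strand, covered positions 14 to 18 after the annotated start and overlapped an E-box at positions 17 to 22. Of 32817 promoters of the same length, 20.8% held the half-site and 7.15% the E-box. None of the 5 motifs was matched in the windows of Ptgs1 and Ptges. Of all promoters 24.9% held TATAA, 12.4% the antioxidant response element core and 8.46% the NF-κB consensus. The promoter tables held 9 of the 10 members, Ptger1 being the exception.

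The total estimated count per sample lay between 21715700 and 29450629, and 3 counts, taken as the smallest detectable level, corresponded to 0.102 to 0.138 CPM (counts scaled to the library size), for counting error only. Levels are given as CPM after TMM scaling, a unit that compares samples for 1 gene, and as TPM, which divides by gene length and compares genes. The lines differed in their cell type markers. Vehicle treated 4T1 cells summed to 2437 to 2683 CPM over 7 epithelial markers and 67NR to 1.80 to 5.35 CPM. Cdh2 and Pdgfrb lay at 142 CPM or more and 42.1 CPM or more in vehicle treated 67NR and at no more than 0.0802 and 0.0407 CPM in any 4T1 sample. In all, 6 of 9 mesenchymal markers were lower in every vehicle treated 4T1 sample than in every 67NR sample, and Fn1 and Col6a1 were higher (log2 differences 0.35 and 0.63, not called). Of 7 leukocyte markers, Adgre1 was listed at 0 in all 16 samples and Ptprc reached at most 1.40 CPM, whereas Cd68, a lysosomal protein that other cells also make, held most of their sum. That sum was 52.5 to 89.2 CPM in vehicle and 133 to 200 CPM in CIX treated 4T1 cells, and 9.21 to 14.2 CPM and 35.97 to 41.7 CPM in 67NR. The sum of 9 mesenchymal markers was 2480 to 3234 CPM in vehicle and 4355 to 5260 CPM in CIX treated 4T1 cells, and 6031 to 6918 CPM and 9120 to 9923 CPM in 67NR. Vim and Fn1 held most of that sum, and of them Vim was called higher with CIX in 4T1 (log2 1.24 ± 0.08), not in 67NR (limma-voom adjusted p = 0.0013). Other members of the list had lower values with CIX, Pdgfrb with 42.1 to 60.4 CPM in vehicle and 28.2 to 34.9 CPM in CIX treated 67NR cells (limma-voom adjusted p = 0.0043), and Col1a2 with means of 1.24 and 0.261 CPM in 4T1. Among the epithelial markers, which summed to 2653 to 2915 CPM in CIX treated 4T1 cells, Epcam fell by 0.78 on the log2 scale in 4T1 (limma-voom adjusted p = 0.00013). The keratins Krt8, Krt18 and Krt19 had positive estimates there (0.43, 0.14 and 0.68) that did not pass. The part of these shifts in the results that follow was not tested. As the samples are bulk RNA, fewer cells of a kind and less RNA per cell cannot be told apart.

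CIX left no member past the threshold of an adjusted p below 0.001 in either line, although the RNA of both cyclooxygenases stood above the vehicle level in every CIX treated 4T1 sample, and Ptgs2 and Ptges did so in every CIX treated 67NR sample. In 4T1, 6 members passed the filter on low values (TPM below 1 in at most 3 of the 8 samples) and 0 were called by limma-voom, with 3 at an unadjusted p below 0.05, where 51.1% of all tested genes lay. The background was 9.28% of 11677 tested genes called, 5.33% higher and 3.96% lower with CIX. DESeq2 called 2 of the 6 members, against 26.5% of all tested genes by the same tool, and edgeR 0, against 8.79%. In 67NR, 7 members were tested and 0 called, with 4 at an unadjusted p below 0.05, against 32.8% of all tested genes. There the background was 0.389%, with 0.181% higher and 0.207% lower. DESeq2 called 2 of the 7 members, against 9% of all tested genes, and edgeR 0, against 0.397%. The backgrounds changed when single samples were left out, and the cause was not tested. The 45 genes called in 67NR became 0 on leaving out vehicle sample 5 or 9 or CIX sample 6, 10 or 14. Their number was 2, 15 and 70 without vehicle sample 1, vehicle sample 13 and CIX sample 2. In 4T1 the 1084 called genes became 286 to 1046, the fewest without vehicle sample 7. The samples of the groups did not overlap for 3 of 6 tested members in 4T1, against 39.6% of all tested genes, and for 4 of 7 in 67NR, against 23.3%. The difference between the responses of the lines was called for 1 of 7 members, Ptgs1, with a background of 7.86%, of which 4.81% were more and 3.06% less positive in 4T1.

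**Figure D1:**
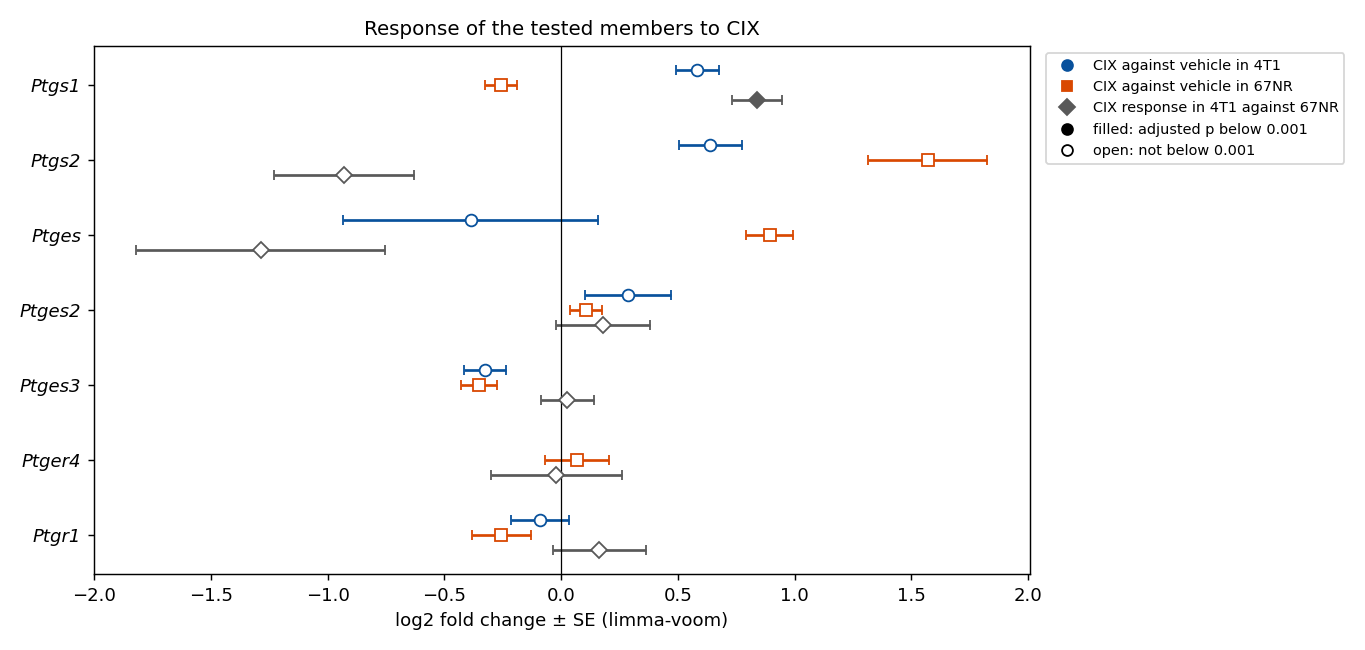
Log2 fold change with CIX (x axis, bars show the SE) of the 7 members that passed a filter, in 4T1 (circles), in 67NR (squares) and the difference of both (diamonds), with filled symbols for an adjusted p below 0.001. The difference for Ptgs1, 0.84, is the only filled symbol, and the Ptges estimate in 4T1 has the widest bar.

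Ptgs1, the COX-1 gene, was measured in vehicle treated 4T1 cells at 121, 121, 121 and 129 CPM (samples 3, 7, 11 and 15). CIX treated 4T1 cells had 204, 202, 173 and 185 CPM (samples 4, 8, 12 and 16). Every CIX sample exceeded every vehicle sample, and the gap was wider than the spread within either group. The log2 fold change of 0.58 ± 0.09 (SE) lay just outside the threshold (limma-voom adjusted p = 0.0011). DESeq2's Wald test gave an adjusted p of 1.05e-07 and a common fit of all 16 samples 1.29e-05, whereas edgeR gave 0.0011.

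In 67NR the same gene stood higher to begin with, and its estimate had the other sign. Vehicle treated 67NR cells had 575, 647, 566 and 611 CPM (samples 1, 5, 9 and 13), and CIX treated cells had 498, 525, 470 and 532 CPM (samples 2, 6, 10 and 14). The groups did not overlap, but the log2 fold change of -0.26 ± 0.07 did not pass (limma-voom adjusted p = 0.035). The response to CIX was more positive in 4T1 than in 67NR by 0.84 ± 0.11 on the log2 scale, and this difference was called (limma-voom interaction, adjusted p = 4.72e-05). It stayed called on leaving out each of the 16 samples in turn, between 0.80 and 0.90. It was not called when tested against a fold change of 1.5.

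Ptgs2, the COX-2 gene, was the most abundant cyclooxygenase RNA of 4T1 cells. With vehicle it was measured at 471, 393, 401 and 443 CPM in samples 3, 7, 11 and 15, and with CIX at 549, 638, 873 and 715 CPM in samples 4, 8, 12 and 16. All CIX samples lay above all vehicle samples. The log2 fold change of 0.64 ± 0.14, or 1.56-fold, did not pass the threshold (limma-voom adjusted p = 0.0048). DESeq2 called it with an adjusted p of 0.000151.

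In 67NR, Ptgs2 was measured with vehicle at 79.7, 65.5, 76.1 and 95.6 CPM in samples 1, 5, 9 and 13. With CIX it was measured at 154, 203, 269 and 366 CPM in samples 2, 6, 10 and 14. The lowest CIX sample exceeded the highest vehicle sample, and the CIX samples spread more widely among themselves than the vehicle samples. The fitted level was 2.97-fold the vehicle level (log2 1.57 ± 0.25), which did not pass (limma-voom adjusted p = 0.0047), while DESeq2 gave an adjusted p of 9.96e-10. On leaving out each sample in turn the log2 fold change in 67NR remained between 1.36 and 1.79. The response was less positive in 4T1 than in 67NR by 0.93 ± 0.30 on the log2 scale, and this difference was not called (limma-voom interaction, adjusted p = 0.028). Even with CIX, no 67NR sample reached the lowest vehicle treated 4T1 sample.

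**Figure D2:**
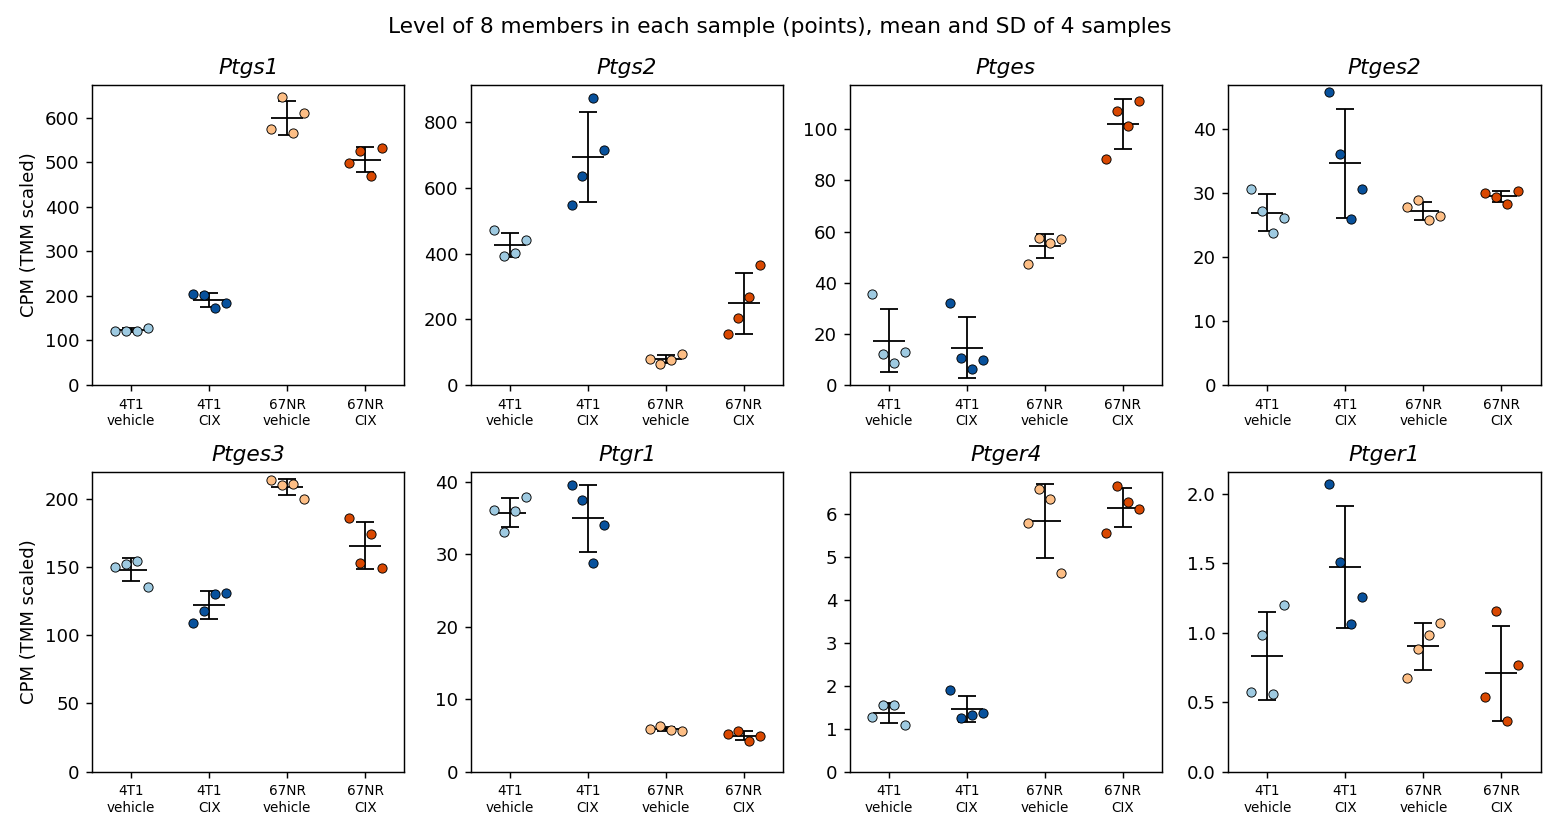
CPM (y axis, from 0, TMM scaled) of 8 members in each of the 16 samples, with points for samples and bars for the mean and SD of 4 samples per group. Ptgs1 and Ptgs2 have opposite orders of the lines, and 1 vehicle and 1 CIX treated 4T1 sample lie apart for Ptges.

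Between the untreated lines the cyclooxygenases stood in opposite order. Of 6 members tested over the vehicle samples 5 were called, 2 higher and 3 lower in 4T1, where 40% of 11058 tested genes were called, 20.4% higher and 19.6% lower. The samples of the lines did not overlap for the same 5 members, against 61.6% of all tested genes. Ptgs1 was lower in 4T1 than in 67NR by a log2 difference of -2.28 ± 0.08 (limma-voom adjusted p = 8.67e-08). Ptgs2 was higher in 4T1 by 2.44 ± 0.13, or 5.44-fold (limma-voom adjusted p = 4.91e-07). This comparison uses the same vehicle samples as the CIX comparisons.

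Per length, Ptgs2 made up 68.5% ± 1.7 (SD, n = 4) of the summed TPM of Ptgs1 and Ptgs2 in vehicle treated 4T1 cells and 69.0% ± 5.7 with CIX. In 67NR it made up 7.67% ± 1.24 with vehicle and 23.1% ± 6.3 with CIX. Single 67NR samples ranged from 5.96% to 8.93% with vehicle and from 16.3% to 30.1% with CIX, so that the groups did not overlap. In 4T1 the vehicle samples, from 67.1% to 70.9%, lay inside the range of the CIX samples, 62.8% to 76.0%. Without the division by length the means were 77.6% and 78.0% in 4T1 and 11.7% and 32.2% in 67NR, with vehicle and CIX. These shares are given as a description with no test.

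**Figure D3:**
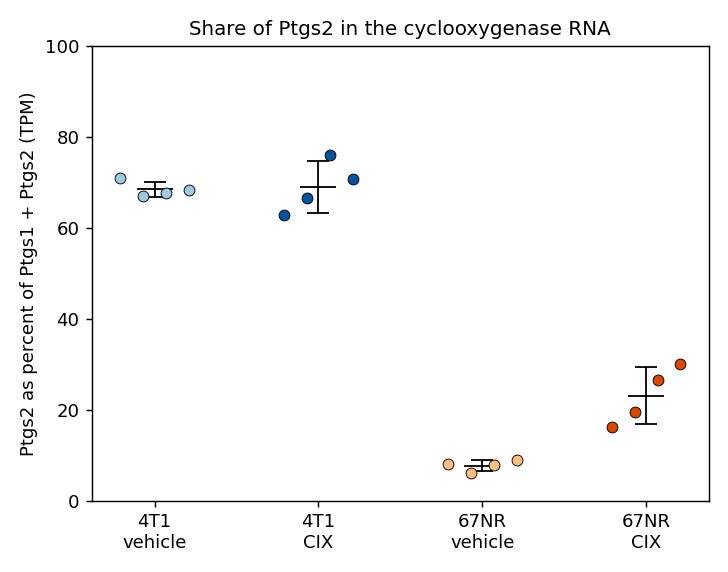
Ptgs2 as a percent of the summed TPM of Ptgs1 and Ptgs2 (y axis) in each sample, with the mean and SD of 4 samples per group. The share was near 68.5% and 69.0% in the 4T1 groups, and 7.67% and 23.1% in the 67NR groups.

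Ptges encodes the microsomal, inducible prostaglandin E synthase, which works together with COX-2. In vehicle treated 67NR cells it was measured at 47.5, 57.4, 55.7 and 57.0 CPM (samples 1, 5, 9 and 13), and with CIX at 88.4, 107, 101 and 111 CPM (samples 2, 6, 10 and 14). The groups were widely apart, with a log2 fold change of 0.89 ± 0.10, or 1.86-fold, which missed the threshold narrowly (limma-voom adjusted p = 0.0013). DESeq2's Wald test called it (adjusted p = 4.42e-13), and voom with sample quality weights did as well (0.000416). A common fit of all 16 samples, which pools the spread with that of 4T1, gave 0.069.

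In 4T1 the level of Ptges differed between samples more than between treatments. Vehicle treated cells had 35.7, 12.2, 8.64 and 13.1 CPM (samples 3, 7, 11 and 15), and CIX treated cells had 32.2, 10.6, 6.12 and 9.69 CPM (samples 4, 8, 12 and 16). Vehicle sample 3 was at 3.16 times and CIX sample 4 at 3.66 times the mean of the other samples of its group. The log2 fold change was -0.39 ± 0.55 (limma-voom adjusted p = 0.59), and without samples 3 and 4, an alternative chosen after seeing the data, it was -0.43 ± 0.26 (adjusted p = 0.22). The difference between the lines in the response was -1.29 ± 0.53 (limma-voom interaction, adjusted p = 0.083) with all samples and -1.34 ± 0.27 (adjusted p = 0.0019) without these samples, so it passed in neither fit.

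Without CIX, Ptges was lower in 4T1 than in 67NR by -1.85 ± 0.34 on the log2 scale (limma-voom adjusted p = 0.00096), and no 4T1 sample reached the lowest 67NR sample. The call was lost on leaving out any 1 of 7 of the 8 vehicle samples, with adjusted p-values of 0.0015 to 0.0048, and kept, with -2.24 and an adjusted p of 1.1e-05, only without 4T1 sample 3. It was also lost with edgeR (adjusted p = 0.0056), on the log2 TPM scales and with a block of consecutive sample numbers, described below.

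Neither of the constitutive E synthases was called with CIX. Ptges2, a membrane associated synthase, was measured at 23.7 to 30.6 CPM in vehicle and 25.97 to 45.8 CPM in CIX treated 4T1 cells, and at 25.8 to 29.0 CPM and 28.4 to 30.4 CPM in 67NR. The ranges overlapped in each comparison, and the log2 fold changes with CIX were 0.29 ± 0.18 in 4T1 and 0.10 ± 0.07 in 67NR (limma-voom adjusted p = 0.24 and 0.33). Its level in the untreated lines differed by only -0.02 ± 0.10 (limma-voom adjusted p = 0.90).

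Ptges3, the cytosolic E synthase that is also the HSP90 co-chaperone p23, was the most abundant synthase RNA. It was measured at 150, 152, 154 and 136 CPM in vehicle and 109, 118, 130 and 131 CPM in CIX treated 4T1 cells. In 67NR it was measured at 213, 210, 211 and 200 CPM with vehicle and 186, 153, 174 and 149 CPM with CIX. The CIX samples lay below the vehicle samples in both lines. Log2 fold changes of -0.33 ± 0.09 in 4T1 and -0.35 ± 0.08 in 67NR did not pass (limma-voom adjusted p = 0.017 and 0.016), and their difference was 0.03 ± 0.11 (adjusted p = 0.90). The untreated lines differed by -0.49 ± 0.07, lower in 4T1 (limma-voom adjusted p = 0.00013), a call that was not made on the log2 TPM scales or against a fold change of 1.5. It was also lost with a block of consecutive sample numbers, described below (limma-voom adjusted p = 0.0023). The values of Ptges3 are uncertain, because 20.6% of the 31-base words in its transcripts also occur in transcripts of other genes, 20.3% in the copy Ptges3-ps. That copy was assigned 59.6 to 76.1 CPM in vehicle treated 4T1 cells and 98.6 to 105 CPM in vehicle treated 67NR cells.

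By mean TPM, the EP receptors were the least abundant of the members that were detected. In CIX treated 67NR cells, however, Ptger4 and Ptgr1 overlapped in TPM. By mean CPM, Ptger4 lay above Ptgr1 in that group (6.15 and 4.98 CPM). Ptger4 (EP4, which raises cAMP) was measured at 1.28, 1.54, 1.56 and 1.08 CPM in vehicle and 1.91, 1.25, 1.32 and 1.38 CPM in CIX treated 4T1 cells. In 67NR it was at 5.79, 6.56, 6.34 and 4.62 CPM with vehicle and 5.56, 6.64, 6.27 and 6.11 CPM with CIX. All 67NR samples lay above all 4T1 samples, and the treatments overlapped within each line. Among the receptors in the member list, Ptger4 was the highest per length in 67NR, whereas in 4T1 it overlapped Ptger1. In 67NR the log2 fold change with CIX was 0.07 ± 0.14 (limma-voom adjusted p = 0.78). As Ptger4 did not pass the filter in 4T1, the difference of the means, 1.37 CPM in 4T1 and 5.83 CPM in 67NR with vehicle, was tested by exact permutation (2-sided p = 0.0286, the smallest that 4 against 4 samples allow). Without the filter limma-voom called it, at a log2 difference of -2.10 ± 0.24 (adjusted p = 2.72e-05).

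Ptger1 (EP1, which raises calcium) was measured at 0.562 to 1.20 CPM in vehicle and 1.06 to 2.07 CPM in CIX treated 4T1 cells, and at 0.675 to 1.07 CPM and 0.366 to 1.16 CPM in 67NR. The groups overlapped, and the exact permutation tests of the difference of mean CPM gave 2-sided p = 0.0571 in 4T1 and 0.343 in 67NR. Ptger2 (EP2, also coupled to cAMP) was listed at 0 in 15 of 16 samples and at 0.0428 CPM, below the floor of 3 counts, in vehicle treated 67NR sample 13. Expression of Ptger2 was thus not detectable at this depth in either line.

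The enzymes that end the signal were unequal. Hpgd, which inactivates prostaglandin E2 by oxidation, was listed at 0 in all 16 samples, which allows a level of up to 0.102 to 0.138 CPM in a sample. Ptgr1, a reductase of 15-keto prostaglandins that also inactivates leukotriene B4, was measured at 36.1, 33.1, 35.95 and 37.9 CPM in vehicle and 39.5, 37.4, 28.9 and 34.1 CPM in CIX treated 4T1 cells. In 67NR it was at 5.95, 6.30, 5.71 and 5.61 CPM with vehicle and 5.21, 5.61, 4.21 and 4.87 CPM with CIX. The lines were far apart and the treatments overlapped. Ptgr1 was higher in vehicle treated 4T1 than in 67NR by 2.60 ± 0.11 on the log2 scale, or 6.07-fold (limma-voom adjusted p = 1.91e-07). With CIX its log2 fold changes were -0.09 ± 0.13 in 4T1 and -0.26 ± 0.13 in 67NR (limma-voom adjusted p = 0.59 and 0.19).

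Compared per length, the order of the members differed between the lines. In vehicle treated 4T1 cells Ptgs2 led with 238 ± 26 TPM (SD, n = 4), followed by Ptges3 with 149 ± 4.4 and Ptgs1 with 109 ± 8.7 TPM, and these 3 did not overlap. Ptgr1 (20.9 ± 1.8 TPM), Ptges (17.5 ± 12.1 TPM) and Ptges2 (17.3 ± 2.1 TPM) followed, and Ptges overlapped both its neighbours. In vehicle treated 67NR cells Ptgs1 led with 497 ± 33 TPM, followed by Ptges3 with 197 ± 12 TPM. Ptges (50.9 ± 4.5 TPM) and Ptgs2 (41.0 ± 5.1 TPM) came next and overlapped. With CIX the order in 67NR placed Ptgs2 (130 ± 53 TPM) before Ptges (95.6 ± 12.2 TPM), again with overlapping samples, and in 4T1 Ptgs1 (156 ± 15 TPM) came before Ptges3 (113 ± 8.7 TPM), without overlap. Ptger4 and Ptger1 remained below 1 TPM in every 4T1 sample.

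**Figure D4:**
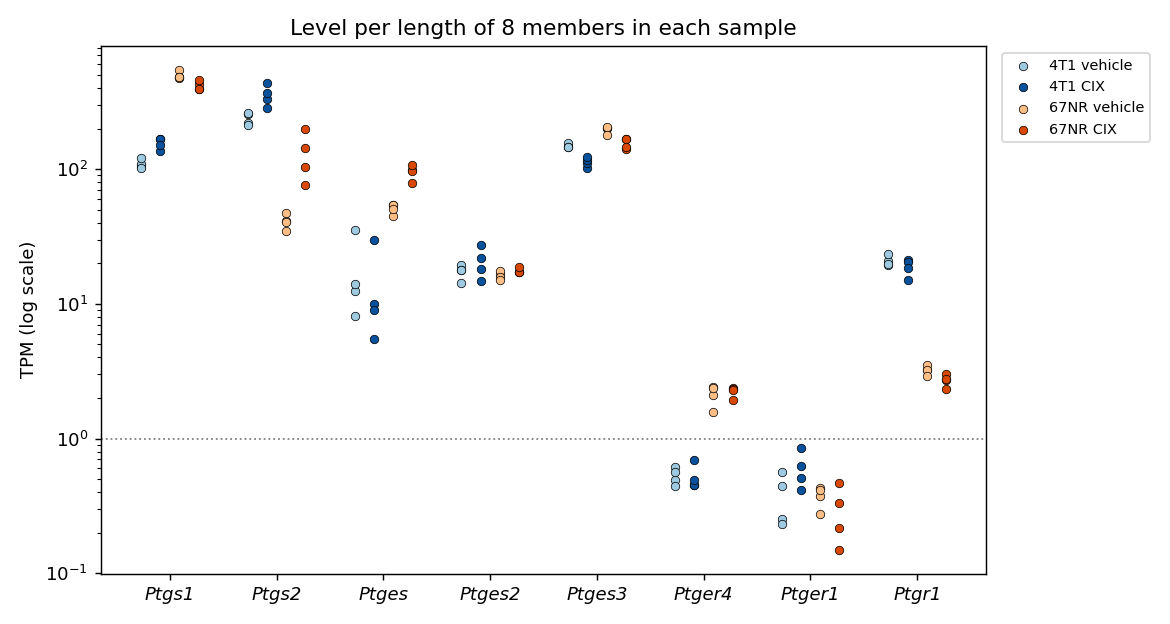
TPM (y axis, log scale) of 8 members in each of the 16 samples, colored by group, with a dotted line at 1 TPM. By group mean, the cyclooxygenases and Ptges3 lie highest in 4T1, and Ptgs1 and Ptges3 in 67NR, where Ptges and Ptgs2 overlap. Ptger4 and Ptger1 have the lowest means of the drawn members. Ptger2 and Hpgd are not drawn because they were listed at 0 in nearly all or all samples.

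The genes whose log2 CPM followed Ptgs2 most closely over the 16 samples, among 12629 tested, were Pgm2 (Pearson r = 0.973), Tead4 (0.966) and Chac1 (0.963). Chac1, a glutathione degrading enzyme, was measured at 86.6 to 97.6 CPM in vehicle and 78.7 to 267 CPM in CIX treated 4T1 cells, and at 6.76 to 12.1 CPM and 20.7 to 40.5 CPM in 67NR. For Ptges, which had the largest estimated difference in response between the lines, the closest genes were Irx3 (0.968), Rhoj (0.965) and Phlda1 (0.962). Phlda1 was measured at 98.6 to 114 CPM in vehicle and 135 to 179 CPM in CIX treated 67NR cells and at 49.3 to 85.8 CPM over the 4T1 samples of both treatments. The 16 points share 2 lines and 2 treatments, and the correlations are a description with no test.

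The 6 neighbouring lists (other prostanoid synthases and receptors, prostaglandin transport and breakdown, lipoxygenases and leukotrienes, the epoxygenase branch, and arachidonate release) held 44 genes. In 4T1, 19 of them were tested and 3 called with CIX, 2 higher and 1 lower, against 9.28% of all tested genes, and in 67NR 0 of 18 were called, against 0.389%. Their median log2 fold change was -0.04 in 4T1 and 0.29 in 67NR, against -0.01 over all tested genes in each line. For the response of 4T1 against 67NR 3 of 22 were called, against 7.86% of all tested genes, and between the untreated lines 10 of 17, 6 higher and 4 lower in 4T1, against 40%. Other prostanoid receptors, among them Ptger3, Ptgir and Tbxa2r, were mostly below the filter, with 0 of 6 tested in 4T1 and 1 of 6 in 67NR.

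Lta4h, which makes leukotriene B4 from leukotriene A4, was the clearest of these genes. It was measured at 43.9 to 44.6 CPM in vehicle and 100 to 127 CPM in CIX treated 4T1 cells, and at 104 to 120 CPM and 89.1 to 115 CPM in 67NR. Lta4h rose with CIX in 4T1 by 1.26 ± 0.10 on the log2 scale (limma-voom adjusted p = 6.2e-05), and its response was 1.41 ± 0.13 more positive than in 67NR (adjusted p = 4.8e-06). The other genes called in 4T1 take part in prostaglandin breakdown. Zadh2, also known as prostaglandin reductase 3, rose by 1.12 ± 0.13 (limma-voom adjusted p = 0.00023), from 23.5 to 29.9 CPM to 51.8 to 66.5 CPM, and was not called without vehicle sample 7 or CIX sample 16 (adjusted p at most 0.0014). Ptgr2, prostaglandin reductase 2, fell by 0.67 ± 0.10 (limma-voom adjusted p = 0.00073), from 65.7 to 74.6 CPM to 42.2 to 49.9 CPM, a call that was lost on leaving out any of the 8 samples (adjusted p = 0.0011 to 0.0039).

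In the epoxygenase branch 2 of 5 listed genes were tested. With CIX 0 of these 2 were called in either line, against 9.28% of all tested genes in 4T1 and 0.389% in 67NR. The difference between the lines was called for both, against 7.86% of all tested genes. The response of Ephx1, the microsomal epoxide hydrolase, was more positive in 4T1 by 1.51 ± 0.25 on the log2 scale (limma-voom interaction, adjusted p = 0.00041), and that of Cyp2j6, a cytochrome P450, less positive by 1.11 ± 0.16 (log2 difference -1.11, adjusted p = 0.00011). Ephx1 was measured at 6.97 to 13.0 CPM in vehicle and 13.7 to 19.5 CPM in CIX treated 4T1 cells, and at 301 to 373 CPM and 160 to 236 CPM in 67NR. Its own log2 fold changes were 0.70 ± 0.21 in 4T1 and -0.81 ± 0.12 in 67NR (limma-voom adjusted p = 0.024 and 0.0035). The call of Ephx1 was lost on leaving out 4 of 16 samples singly, 4T1 vehicle 15, 4T1 CIX 8, 4T1 CIX 16 or 67NR vehicle 1 (adjusted p at most 0.0013), and without 4T1 samples 3 and 4 together.

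Between the untreated lines, several genes next to the prostaglandin E2 route were called as well. Higher in 4T1 were the prostaglandin exporter Abcc4 (log2 difference 1.83 ± 0.14), the prostaglandin transporter Slco2a1 (1.72 ± 0.28), the carbonyl reductase Cbr1 (2.41 ± 0.17), the epidermal lipoxygenase Aloxe3 (1.89 ± 0.30), the calcium independent phospholipase Pla2g6 (1.25 ± 0.18) and the amide hydrolase Faah (4.06 ± 0.51). Lower in 4T1 were Alox5ap, the activating protein of 5-lipoxygenase (-5.26 ± 0.30), Ephx1 (-5.04 ± 0.17), Lta4h (-1.32 ± 0.08) and Zadh2 (-1.22 ± 0.12). Slco2a1 and Aloxe3 were each not called on leaving out 5 of the 8 vehicle samples singly (4T1 sample 15 for Slco2a1, 4T1 sample 7 for Aloxe3, and each 67NR sample for both), with adjusted p at most 0.0017 and 0.0024. Slco2a1 and Faah, like Ptges, were highest within their groups in vehicle treated 4T1 sample 3 (247 and 39.2 CPM) and CIX treated 4T1 sample 4 (223 and 57.5 CPM).

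**Figure D5:**
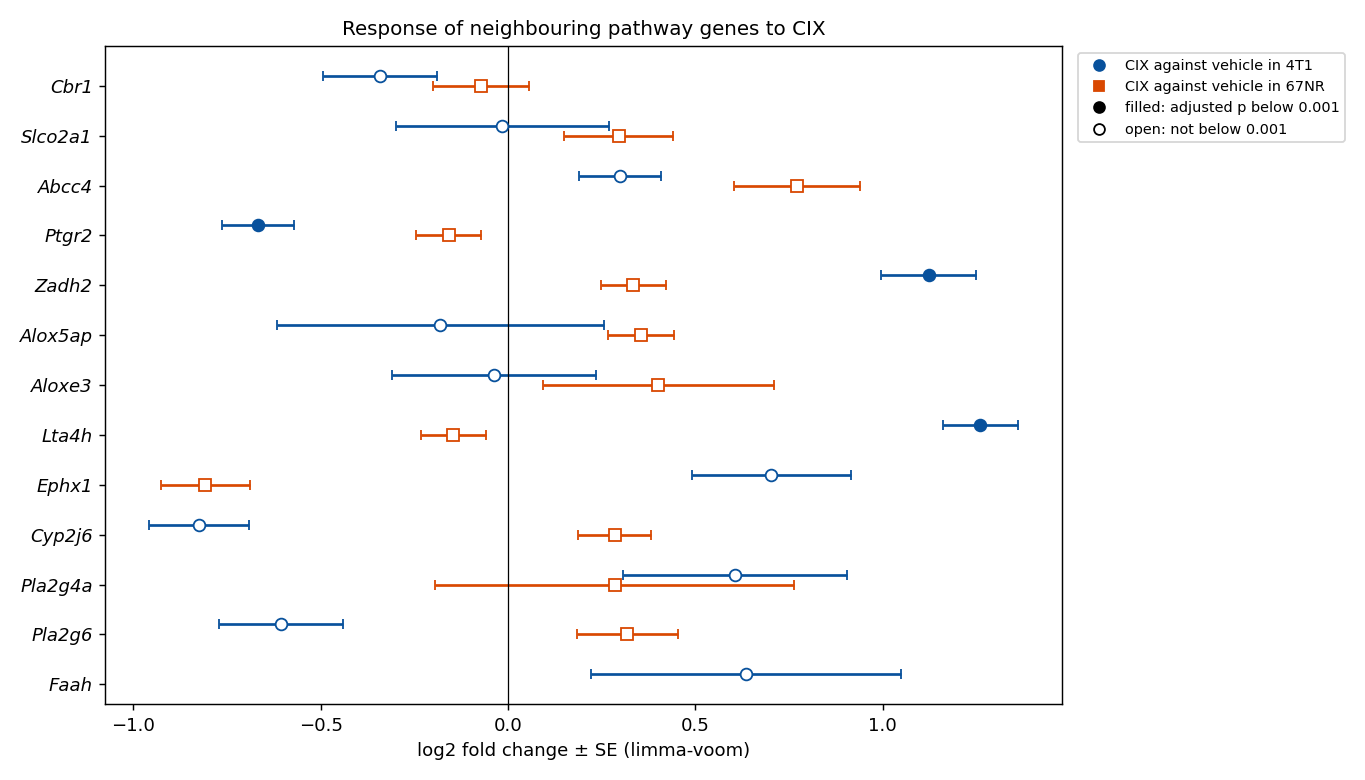
Log2 fold change with CIX (x axis, bars show the SE) of 13 neighbouring pathway genes in 4T1 (circles) and in 67NR (squares), with filled symbols for an adjusted p below 0.001. Ptgr2, Zadh2 and Lta4h in 4T1 carry filled symbols, and Faah has no 67NR value because it did not pass the filter there.

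Pla2g4a, the gene of the drug target cPLA2α, was measured at 57.4 to 162 CPM in vehicle and 108 to 191 CPM in CIX treated 4T1 cells. In 67NR it was at 60.2, 80.9, 76.5 and 326 CPM with vehicle (samples 1, 5, 9 and 13) and at 108 to 177 CPM with CIX. The treatments overlapped in both lines, with log2 fold changes of 0.61 ± 0.30 in 4T1 and 0.28 ± 0.48 in 67NR (limma-voom adjusted p = 0.13 and 0.73). Without vehicle sample 13 the 67NR value was 0.84 (adjusted p = 0.017), which was not called either. The measured RNA says nothing of the activity of the enzyme.

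Genes of 3 further programs were counted beside the members, and their counts stand against 9.28% of all tested genes called with CIX in 4T1, 0.389% in 67NR and 40% between the untreated lines. Of 14 cAMP response genes, a program that EP2 and EP4 can raise, 12 were tested in 4T1 and 1 was called with CIX, Dusp1 (log2 0.91 ± 0.12, limma-voom adjusted p = 0.00057), a phosphatase of MAP kinases, and in 67NR 0 of 9 were called. The Dusp1 call in 4T1 was lost on leaving out 7 of the 8 samples singly, all but CIX sample 4 (adjusted p at most 0.0024), whereas the difference of its response between the lines, 1.51 ± 0.14, was called (adjusted p = 4.8e-06). Between the untreated lines 5 of 9 were called, 2 higher and 3 lower in 4T1, with the largest difference for Nr4a2 (-4.86 ± 0.56). Of 11 HSP90 and co-chaperone genes, 1 rose and 1 fell in 4T1, the latter being Dnaja1 (-1.09 ± 0.09), and 0 were called in 67NR. The response of Dnaja1 was lower in 4T1 than in 67NR by 0.77 (log2 difference -0.77 ± 0.11). Between the untreated lines 3 of these 11 were called, with the largest difference for Sugt1 (1.35 ± 0.09). Of 11 NRF2 targets, 1 was called in each line, Nqo1 in 4T1 (2.58 ± 0.26) and Hmox1 in 67NR (1.64 ± 0.13, not called on leaving out 7 of the 8 samples singly, all but CIX sample 2, adjusted p at most 0.0037). The responses of Nqo1 and Hmox1 differed between the lines by 2.34 ± 0.30 and -2.68 ± 0.27. Between the untreated lines 7 of 11 NRF2 targets were called, with the largest difference for Slc7a11 (4.44 ± 0.49). The medians of these lists with CIX were 0.13, -0.08 and -0.01 in 4T1 and -0.31, -0.16 and 0.04 in 67NR, against -0.01 over all tested genes in each line.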

How the data were processed

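RNA of 16 samples, 4 in each of 4 groups, was analysed. Poly-A selected, stranded libraries were sequenced. The authors quantified reads with salmon (version 0.12 in the submitters' processing notes) on the Ensembl GRCm38 mouse genome, and collapsed transcripts by tximport. The table the authors deposited holds estimated counts, one value a gene and sample, without normalization. The scaling used by tximport is not given in the sources used here.

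Estimated counts were rounded. TPM was approximated with the mean transcript length from GENCODE (GRCm38), which held 32911 of 33072 genes. A gene was dropped from a fit if over 3 of its samples were under 1 TPM, and from the interaction only if this held in both lines. The TPM limit, limma-voom, Benjamini-Hochberg adjustment and the threshold of 0.001 follow the paper's methods. TMM scaling, a separate fit and filter per comparison and the interaction rule were chosen here (limma 3.58.1, edgeR 4.0.16, R 4.3.3). The paper's methods do not say which samples entered its fit. With CIX in 4T1 the separate fit called 1084 genes and a common fit of all 16 samples 2506. DESeq2 1.42.0 and edgeR were alternatives. Members that did not pass the filter were tested by exact permutation of 70 assignments. The method was tested on simulated data, which had the same dispersion for every gene and no outlying samples. That test therefore does not cover calls that change with single samples.

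The members, lists and tests were chosen with earlier results of these data known. Named genes are all members, called genes of the 6 neighbouring lists and Pla2g4a, the called gene with the largest change per comparison of 3 further lists, and the 3 genes most correlated (log2 CPM, prior count 2) with Ptgs2 and with the member of the largest interaction. The study's methods call the samples of a group biological replicates. No samples were repeats of each other (chi-square per gene at least 16.7). Alternatives covered the tool, scaling, filter, weights, rounding, log2(TPM + 1) and log2(TPM + 0.1), the threshold, a test against a fold change of 1.5, all 16 samples in 1 fit, leaving out samples, and a block of consecutive sample numbers.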

Additional observations from a re-analysis of the deposited data

Results flagged for a closer look

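Ptgs1 is listed here because its response to CIX differed between the lines (interaction on the log2 scale 0.84, 4T1 minus 67NR). The same held for Lta4h (1.41), Ephx1 (1.51), Cyp2j6 (-1.11), Dusp1 (1.51), Dnaja1 (-0.77), Nqo1 (2.34) and Hmox1 (-2.68).

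A further 6 of 113 groups of 4 samples had 1 sample far from the others by Dixon's test, a number near the 1 in 20 that chance gives. Vehicle treated 4T1 sample 3 had 35.7 CPM of Ptges, where the others had 8.64 to 13.1. In the CIX treated 4T1 group sample 4 also stood apart, at 32.2 CPM, but its gap did not reach the limit. Vehicle treated 67NR sample 13 had 326 CPM of Pla2g4a, where the others had 60.2 to 80.9. For Ptgs1, vehicle treated 4T1 sample 15 had 129 CPM beside 121 CPM in each of the others, a small gap in a tight group. Ptger2 at 0.0428 CPM in vehicle treated 67NR sample 13 is less than 1 estimated count. Cbr1 was at 6.23 CPM in CIX treated 67NR sample 10 (others 8.30 to 8.42), and Faah at 1.85 CPM in vehicle treated 67NR sample 9 (others 0.984 to 1.11).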

How the results depend on the processing

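The count of members called with CIX in 4T1, 0, became 2 with DESeq2 (26.5% of all tested genes called) and with sample quality weights (21.6%), 1 without a filter (4.95%), with filterByExpr (9.57%) and in a common fit of all 16 samples (19.8%), and 3 at an adjusted p below 0.05 (42.7%). In 67NR 0 became 2 with DESeq2 (9%), 1 with sample quality weights (2.13%) and in the common fit (1.15%), and 4 at 0.05 (17.8%). For the difference in response, 1 became 2 at 0.05 (29.3%) and 0 against a fold change of 1.5 (5.05%). Between the untreated lines 5 became 3 on either TPM scale (38.4% with pseudocount 1, 37.6% with 0.1), and 4 to 6 members were called on leaving out single samples (35.2% to 42.2%). The cause of these changes was not tested. No called value changed sign under any alternative run. Without 4T1 samples 3 and 4, chosen after seeing the data, the counts were 0 of 6 members tested in 4T1 (7.08% of all tested genes called), 1 of 7 for the difference in response (9.33%) and 6 of 7 between the untreated lines (42.2%), where the sixth was Ptger4, which then passed the filter. The calls of Ptgr2 and Dusp1 with CIX in 4T1 and of the Ephx1 difference in response were lost in these fits.

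The groups share no replicate numbers, but each run of 4 consecutive sample numbers holds 1 sample of each group. The labels do not call these runs sets. Deviations from the group means correlated across genes between samples 3 and 4 (r = 0.321) and 11 and 12 (0.271), less between 15 and 16 (0.133) and 7 and 8 (0.052), and between -0.0621 and 0.0704 for the pairs in 67NR and -0.229 and 0.136 for those of the untreated lines, so the pairing was not established. With the runs as a replicate block, chosen after seeing the data, 0 members were called with CIX in 4T1 (8.97% of all tested genes) and in 67NR (0%), 1 for the difference in response (7.72%) and 3 instead of 5 between the untreated lines (26.4% of all tested genes), where Ptges and Ptges3 were lost. In 67NR 0 genes in all were called with the block, instead of 45, Hmox1 among those lost, and in 4T1 the calls of Ptgr2 and Dusp1 were lost and Hmox1 was called. The log2 fold change of Ptges with CIX in 4T1 was then -0.33 ± 0.12 (limma-voom adjusted p = 0.064), and its level was lower in the CIX sample of each of the 4 runs.

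Exact permutation tests of members below the filter kept their side of 0.05 under each alternative. Depth limits statements on Ptger1, Ptger2 and Hpgd.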
